A study of Mus musculus with 2 samples.

Results

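The cells described here were picked from dorsal meninges of mice as candidate conventional type 1 dendritic cells (cDC1). A cell was taken when it carried at least 5 unique molecular identifiers (UMIs, each 1 captured RNA molecule) of H2-Aa, at least 1 UMI of Xcr1 or Clec9a, less than 0.5% of its UMIs from C1qa, C1qb and C1qc together, and no UMI of Ccr7, Siglech or Cd79a. Of 7048 deposited barcodes, 5816 had 150 to 5000 detected genes, with mitochondrial genes giving 20% or less and hemoglobin genes 5% or less of the UMIs, and 93 of these met the rule. They were 34 of 2043 Sham cells and 59 of 3773 TBI cells.

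Male wild-type C57BL/6J mice (C57BL/6 in the labels), about 10 weeks old and labelled 10 to 12 weeks, received either a mild closed-skull traumatic brain injury (TBI) or a Sham procedure, and the dorsal meninges were taken 1 week later. Tissue of 5 mice was pooled into 1 single-cell RNA-seq library per group, after enzymatic digestion and sorting of live single cells without any gate for a cell type. Since each group is 1 library, no difference between groups could be tested, and animal, library and injury cannot be told apart. Intervals given below are 95% intervals that cover counting error only.

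Dendritic cells take up antigen and present it to T cells. The cDC1 lineage depends on the transcription factors IRF8 and BATF3, takes up dying cells through the receptor CLEC9A, and shows their peptides to CD8 T cells on MHC class I, which is called cross-presentation. Its receptor XCR1 binds the chemokine XCL1 made by T and natural killer cells. The sister lineage, cDC2, is marked in mice by CD209a, SIRPa and the lectins MGL2 and CLEC10A.

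Positions are those of the mouse genome GRCm38. Of the genes of which the rule asked at least 1 UMI, Xcr1 (ENSMUSG00000060509) spans bases 123852315 to 123862029 of chromosome 9 on the minus strand, and Clec9a (ENSMUSG00000046080) spans 129408862 to 129424763 of chromosome 6 on the plus strand. Irf8 (ENSMUSG00000041515), which the rule did not use, spans 120736358 to 120756694 of chromosome 8, and Flt3 (ENSMUSG00000042817), the receptor for the dendritic cell growth factor FLT3L, spans 147330741 to 147400489 of chromosome 5. All are protein-coding genes, and the counts are of the genes as a whole.

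The cells were deeply covered, so that 1 UMI of Clec9a was a low bar. The 34 Sham cells held 336550 UMIs and the 59 TBI cells 636534, with medians of 10864.5 and 10763 UMIs per cell and ranges of 797 to 19487 and 1141 to 22374. The floor of 3 UMIs in these sums equals 8.91 UMIs per 1000000 (CPM) in Sham and 4.71 CPM in TBI. It equals 25.6 and 9.16 CPM in the Xcr1 cells described below, 13.7 and 9.71 CPM in the Clec9a-only cells and 3.23 and 2.80 CPM in the cDC2 cells, and a level above 0 but below these rests on 1 or 2 UMIs. No barcode of these cells occurred in the other library, although 20 barcodes were shared between the libraries, 14 of them after filtering. A doublet caller run on simulated doublets marked 33 of 2043 Sham cells (1.62%) and 114 of 3773 TBI cells (3.02%). These shares were fixed in advance at 0.8% per 1000 cells of the library and measure no difference between the libraries. Of the cells of the rule, 1 Sham and 3 TBI cells were marked.

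The markers of cDC1 were present, but not in all cells, and the cells of the rule were of unlike kinds. A Clec9a UMI was found in 89 of the 93 cells and an Xcr1 UMI in 41, 37 cells had both and 4 had Xcr1 alone. The other 52 cells carried Clec9a without Xcr1, and in 42 of these the rule was met by exactly 1 Clec9a UMI. Cd209a, a cDC2 marker that the rule left free, had a UMI in 37 of those 52 cells and in 2 of the 41 cells with Xcr1. Irf8 showed the opposite distribution, with a UMI in 19 of 52 and 39 of 41 cells. With each cell thinned to 1000 UMIs, Irf8 was found in 9 of 11 Sham and 24 of 29 TBI Xcr1 cells and in 6 of 21 and 7 of 30 Clec9a-only cells, 1 shallower Sham cell of each kind being left out. The 52 cells are therefore called Clec9a-only cells and the 41 Xcr1 cells, and values are given for each. This division was chosen after the counts had been seen, on genes of the rule and of the same cells, and carries no test.

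**Figure D1:**
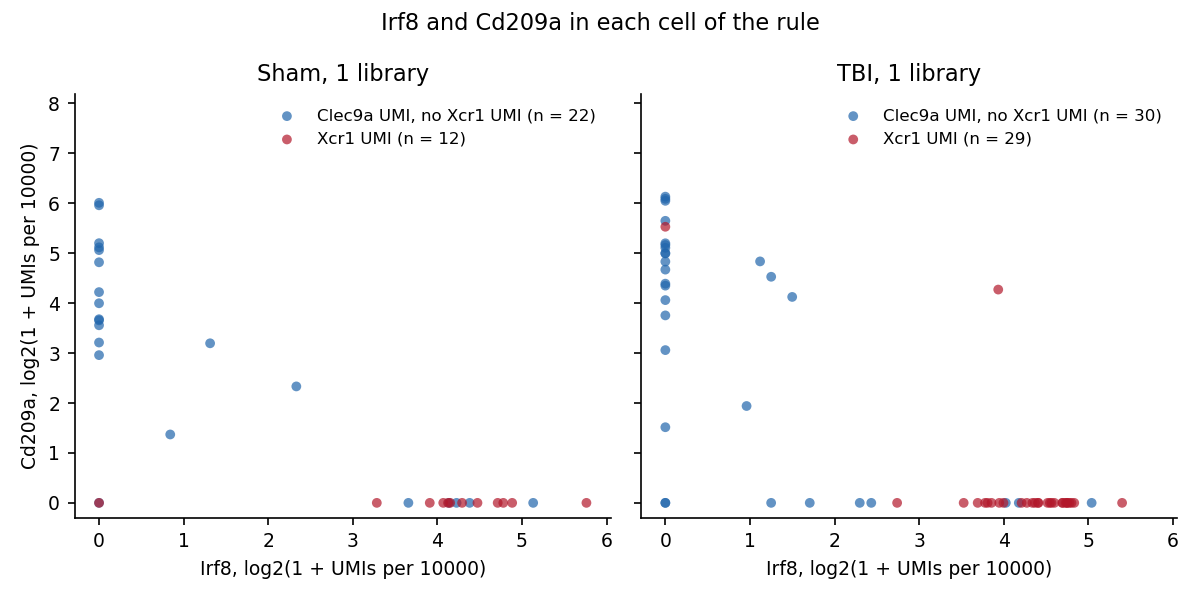
Irf8 (x axis) against Cd209a (y axis) in each cell of the rule, both as log2(1 + UMIs per 10000 UMIs of the cell), with 1 panel per library and color for Xcr1 and Clec9a-only cells. Most Xcr1 cells lie along the Irf8 axis at 0 Cd209a, apart from 2 TBI cells, and most Clec9a-only cells lie along the Cd209a axis.

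Irf8 and Cd209a were also compared at the limits of the rule. The 44 cells with exactly 1 UMI of Xcr1 plus Clec9a had 256 CPM of Irf8 and 1860 CPM of Cd209a. The 49 cells with 2 or more had 1705 and 469 CPM. For comparison, 217 cDC2 cells, chosen by at least 1 Cd209a UMI with the same other limits and no Xcr1 or Clec9a, had 29.0 and 2370 CPM. At the limit for H2-Aa, 3 Sham cells with 5 to 9 UMIs were inside, at 2629 CPM of Irf8, and 8 cells with 1 to 4 UMIs outside, at 1619 CPM, with no Cd209a on either side. At the limit for C1q genes, 4 cells with 0.25 to 0.5% were inside, at 67.8 CPM of Irf8 and 407 CPM of Cd209a, and 5 cells with 0.5 to 1% outside, at 810 CPM of Irf8 and no Cd209a, of which 2 had an Xcr1 UMI. At the C1q limit the cells left out thus had the higher Irf8. A further 40 cells with an Xcr1 or Clec9a UMI were left out for Siglech, which marks plasmacytoid dendritic cells, and 11 for Ccr7, the lymph node homing receptor.

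Low Clec9a counts were not confined to cells of the rule. Among all 251 filtered cells with at least 5 Cd209a UMIs, no Xcr1 and little C1q, which include Clec9a-only cells, 52 (20.7%, interval 15.9 to 26.3%) had a Clec9a UMI, at a median of 9608 UMIs per cell. Outside the rule, the share was 41 of 122 cells with at least 2 Siglech UMIs (33.6%, median 6008.5 UMIs), called Siglech cells. These are not a clean plasmacytoid group, since their macrophage markers summed to 34629 and 20770 CPM in Sham and TBI and their plasmacytoid markers to 7221 and 11260 CPM (C1q genes and Siglech included), and without a limit on C1q genes they can overlap the macrophages. Of migratory cells, chosen by Ccr7 and Fscn1, 5 of 34 had a Clec9a UMI (14.7%, interval 4.95 to 31.1%, median 9404.5 UMIs). The share was 27 of 1021 macrophages (2.64%, median 3727) and 3 of 879 B cells (0.341%, median 2960). None of 563 fibroblasts had one, which allows a share of up to 0.533% (3 cells of the total) at a median of 2803 UMIs. Xcr1 was rarer outside the rule, with a UMI in 1 Siglech cell, 4 macrophages, 1 B cell and no fibroblast of these groups, and in 52 filtered cells in all.

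When all filtered cells of both libraries were clustered together, 81 of the 93 cells fell into 1 cluster of 411 cells led by Cd209a, Cd209c, Ccl17 and Xcr1. Of the other 12, 7 fell into a cluster led by Klra2, Fcgr4, Cx3cr1 and Trem2, 2 into a T cell cluster led by Cd3e and Cd3d, 2 into a cluster led by the proliferation genes Mki67 and Top2a, and 1 into a macrophage cluster led by Ccl8 and Hpgds. Both cells of the T cell cluster were marked as doublets, and the Sham one held 52 Xcl1, 6 Cd3e and 3 Trac UMIs. The TBI cell of the proliferation cluster held 29 Mki67, 14 Top2a and 81 Cd209a UMIs and no Xcr1. The Sham one was an Xcr1 cell of 965 UMIs with 1 Xcr1 and 2 Top2a UMIs and none of Mki67, and cell cycle genes took 2.59% of its UMIs.

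The cluster was divided further without the genes of the rule. A subcluster of 46 cells (12 Sham, 34 TBI) held 33 of the 41 Xcr1 cells and 5 Clec9a-only cells, and its leading genes were Cxcl9, Snx22, Ifi205, Gcsam, Irf8, Serpina3g, Itgae, Rab7b, Ppt1 and Gpr141b. Because 7 of these 10 genes are listed cDC1 markers, it is called cDC1-like. The list was chosen with earlier results of these data known, so the name is a label and carries no test. The remaining Clec9a-only cells were spread over subclusters led by Ccl17, Fcgr3 and Pltp (12 cells), by Ly6c2, Nkg7 and Cd7 (10 cells), by the interferon-induced genes Ifit1, Ifit3 and Isg15 (6 cells), and over 2 subclusters of low median depth, 1047.5 and 1774.5 UMIs (3 and 5 cells), that also held 6 Xcr1 cells. Another Xcr1 cell lay in the subcluster of Ccl17.

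Transcription factors of the lineage differed between the groups to unlike degrees. Of 21 on the list, 4 were at least 2-fold higher in Xcr1 than in cDC2 cells in both libraries and 3 lower, against 3.67% and 8.01% of all genes counted from 10 UMIs. Irf8, without which cDC1 do not form, stood at 2076 CPM in Sham and 1950 CPM in TBI in Xcr1 cells. It stood at 255 and 278 CPM in Clec9a-only cells and at 26.9 and 30.8 CPM in cDC2 cells. Within Xcr1 cells Irf8 ranged from 0 to 53.3 UMIs per 10000 in Sham (median 17.7) and from 0 to 41.2 in TBI (median 20.2), whereas the median Clec9a-only cell of either library had none. Batf3, its partner, was 308 and 211 CPM in Xcr1 cells, 146 and 152 CPM in Clec9a-only cells and 125 and 120 CPM in cDC2 cells. Id2, an inhibitor of E-protein transcription factors, was 1085 and 949 CPM against 213 and 192 CPM. Irf4, the factor linked to cDC2, had no UMI in the Xcr1 cells of either library and 77.5 and 68.0 CPM in Clec9a-only cells.

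Receptors and surface molecules on the cDC1 marker list were compared next. Flt3 was 205 and 220 CPM in Xcr1 cells, 95.7 and 104 CPM in Clec9a-only cells and 89.2 and 106 CPM in cDC2 cells. Cadm1, an adhesion molecule, was 137 and 131 CPM in Xcr1 cells, whereas 1 of the 52 Clec9a-only cells had a UMI of it. The same number held for Itgae, which encodes the integrin CD103, at 222 and 162 CPM in Xcr1 cells. Cd24a was 641 and 476 CPM in Xcr1 cells and 114 and 117 CPM in Clec9a-only cells. Tlr3, the sensor of double-stranded RNA, was 128 and 156 CPM in Xcr1 cells and 0 and 13.0 CPM in Clec9a-only cells. Of the 28 cDC1 markers, Plet1 and Cd8a had no UMI in any Xcr1 cell.

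Of the further cDC1 markers given here, most act in the endosome or lysosome or in cross-presentation. Those given had more UMIs per 1000000 in Xcr1 than in cDC2 cells of both libraries. Ppt1, a lysosomal thioesterase, was 1350 and 1154 CPM in Xcr1 cells, 63.8 and 142 CPM in Clec9a-only cells and 39.8 and 49.5 CPM in cDC2 cells. Naaa, a lysosomal amidase, was 1614 and 1422 CPM in Xcr1 cells and 227 and 273 CPM in cDC2 cells. Rab7b, an endosomal GTPase, was 316 and 311 CPM against 4.30 and 18.7 CPM. Wdfy4, which cDC1 need for cross-presentation, was 615 and 623 CPM in Xcr1 cells, 187 and 159 CPM in Clec9a-only cells and 117 and 111 CPM in cDC2 cells. Snx22, a sorting nexin, was 171 and 198 CPM in Xcr1 cells with no UMI in Sham Clec9a-only cells, and Gcsam was 154 and 162 CPM with no UMI in cDC2 cells of either library.

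**Figure D2:**
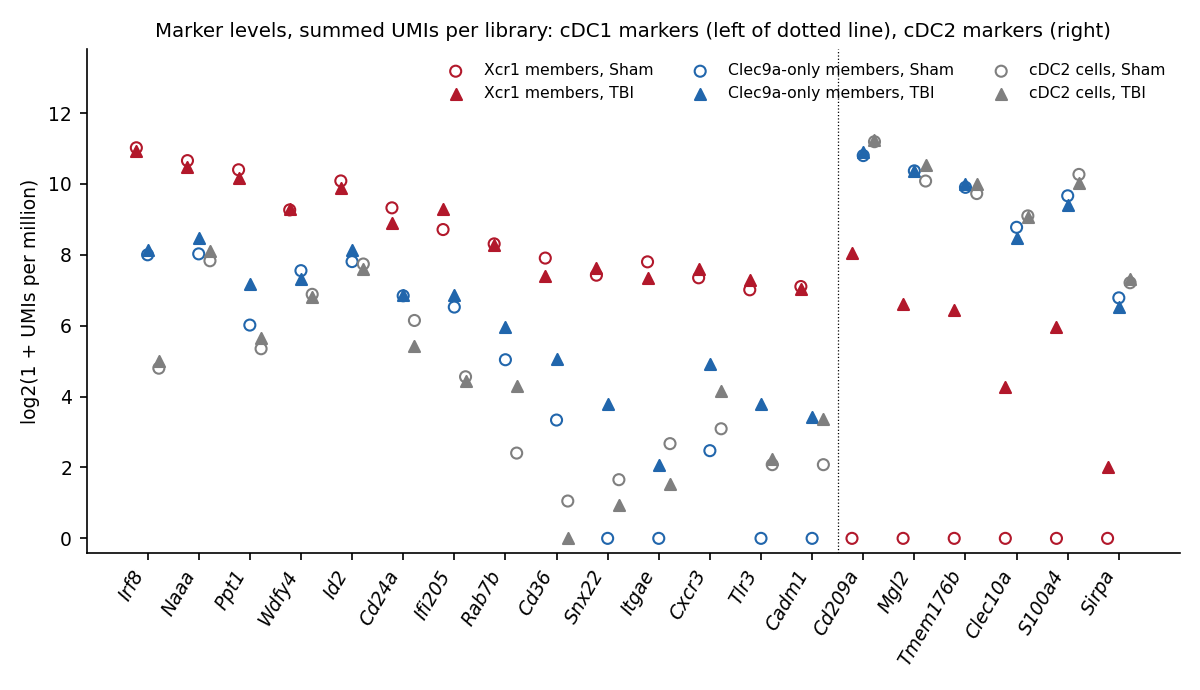
Levels of cDC1 markers (left of the dotted line) and cDC2 markers (right) as log2(1 + CPM) of summed UMIs, for Xcr1 cells, Clec9a-only cells and cDC2 cells, with separate symbols for the Sham and the TBI library. Irf8 lies at 2076 and 1950 CPM in Xcr1 cells and at 26.9 and 30.8 CPM in cDC2 cells, and Cd209a is at 0 in Sham Xcr1 cells.

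Of 21 counted cDC2 markers, 17 were at least 2-fold lower in Xcr1 than in cDC2 cells in both libraries, against 8.01% of all genes. In Clec9a-only cells 1 of the 21 was, against 167 of all 9533 genes counted from 10 UMIs. Cd209a had no UMI in the 12 Sham Xcr1 cells, where the floor is 25.6 CPM, and 266 CPM in the 29 TBI Xcr1 cells. It was 1782 and 1904 CPM in Clec9a-only cells and 2339 and 2397 CPM in cDC2 cells. All 87 Cd209a UMIs of the TBI Xcr1 cells came from 2 cells with 46 and 41 of them, and these cells also held 31 of the 32 Mgl2 UMIs, 26 of 28 Tmem176b UMIs and 17 of 20 S100a4 UMIs. Neither was marked as a doublet, but the share of cells marked was fixed in advance. These 2 cells held 10173 and 22374 UMIs, with 0 and 32 Irf8 UMIs, and 22374 was the highest total among the cells of the rule. Mgl2 was 1321 and 1324 CPM in Clec9a-only cells and 1083 and 1484 CPM in cDC2 cells. Csf1r, the receptor for macrophage growth factors, had no UMI in Xcr1 cells and 137 and 172 CPM in Clec9a-only cells. Ccr2, which guides cells out of blood, was not divided in this way, at 478 and 690 CPM in Xcr1 cells and 583 and 696 CPM in Clec9a-only cells.

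Across the lists, the 25 cDC1 markers counted had a median log2 ratio over cDC2 cells of 3.44 in Sham and 3.55 in TBI for Xcr1 cells. For Clec9a-only cells 20 could be counted, with medians of 0.66 and 0.45. The 21 cDC2 markers had medians of -4.19 and -3.57 in Xcr1 cells and 0.09 and -0.06 in Clec9a-only cells. These ratios describe the choice of cells and are not evidence for it, since Xcr1, Clec9a and Cd209a decided who entered each group. Over all genes the medians were -0.16 and -0.24 for Xcr1 cells and 0.01 and 0.04 for Clec9a-only cells.

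Counted gene by gene, 126 of 4974 genes (2.53%) were at least 2-fold higher in Xcr1 cells than in cDC2 cells in both libraries, and 380 (7.64%) at least 2-fold lower. For Clec9a-only cells the counts were 27 (0.518%) and 28 (0.537%) of 5213 genes, and for all cells of the rule 72 (1.27%) and 83 (1.47%) of 5660 genes. Between Xcr1 and Clec9a-only cells, 69 (3.07%) of 2246 genes were higher and 124 (5.52%) lower in both libraries. The groups differ in their number of cells and genes counted, and the shares were not compared with each other.

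Among the leading genes of all cells over cDC2 cells were genes with no place in the marker list. Gpr141b, named as an orphan receptor gene but annotated as a long non-coding RNA, was 145 and 91.6 CPM in Xcr1 cells and 1.08 and 0 CPM in cDC2 cells. Fcrla, an Fc receptor-like gene, was 214 and 146 CPM in Xcr1 cells against 5.38 and 4.67 CPM in cDC2 cells, and 116 and 201 CPM in Siglech cells. Mycl, a MYC-family transcription factor expressed in cDC1, was 111 and 122 CPM in Xcr1 cells and 7.53 and 10.3 CPM in cDC2 cells. Gm36723 (102 and 104 CPM in Xcr1 cells), Fam149a and Fndc7 belonged to the same set. Cd36, a scavenger receptor on the marker list, was 239 and 168 CPM in Xcr1 cells and 1.08 and 0 CPM in cDC2 cells.

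The lowest genes against cDC2 cells were Fabp5, Ecrg4, Kif23, Dock4, Mgp, Plpp3, Bgn, Fn1, Id3 and Mt2. Fabp5, a fatty acid binding protein, had 1 UMI in Sham and 2 in TBI in all cells of the rule, below the floor, and 31.2 and 23.4 CPM in cDC2 cells. Mgp, a matrix gene of fibroblasts, had 1 UMI in Sham and was 42.4 CPM in TBI, against 27.96 and 177 CPM. Fn1 and Kif23 turned to higher ratios, 0.98 and 0.96, when every cell was weighted equally. Mgp, Bgn, Fn1, Plpp3 and Ecrg4 are mostly known from stromal or other cells. The 8 fibroblast markers summed to 14.9 and 126 CPM in the cells of the rule and to 57.0 and 1006 CPM in cDC2 cells, so TBI was higher in both. Their part in these ratios was not tested.

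Across 6 cell groups in both libraries, 12 points in all, the genes whose log2 level followed Xcr1 most closely were Ppt1, Ifi205, Gpr141b, Itgae and Sept3, with Pearson correlations of 0.87, 0.81, 0.81, 0.80 and 0.80. Those closest to Clec9a were Irf8 (0.93), Ube2j2 (0.86), Slc8b1 (0.85), Hpse (0.83) and AC113595.1 (0.82). Both Irf8 and Clec9a also stood high in Siglech cells, where Irf8 was 1666 and 2222 CPM and Clec9a 86.4 and 106 CPM. The levels of Xcr1 and Clec9a in these groups were set in part by the choice of cells, since the rule asked for a UMI of either and the cDC2 cells had none, so the correlations describe the groups and support nothing. The points of a library also share its depth and free RNA.

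Genes for antigen presentation were compared with the cDC2 cells. H2-Aa, the MHC class II alpha chain of which both groups had to have at least 5 UMIs, was 15513 and 14756 CPM in Xcr1 cells and 15623 and 15952 CPM in Clec9a-only cells, levels that the choice of cells helped to set. Over cDC2 cells, the 12 counted genes of MHC class II presentation had median log2 ratios of -0.03 and -0.26 in Xcr1 cells, with 1 at least 2-fold higher in both libraries and 2 lower, against 3.67% and 8.01% of all genes. Ctss and Ifi30, lysosomal enzymes that prepare peptides for class II, were 666 and 525 CPM and 436 and 601 CPM in Xcr1 cells, against 1188 and 1366 CPM and 1776 and 1525 CPM in cDC2 cells.

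The MHC class I list, which includes the peptide transporter and the immunoproteasome, had medians over cDC2 cells of 0.38 and 0.56 in Xcr1 cells, with 4 of 16 genes at least 2-fold higher in both libraries and none lower, against 3.67% and 8.01% of all genes counted from 10 UMIs. Tap1, a subunit of the peptide transporter, was 350 and 323 CPM in Xcr1 cells and 123 and 112 CPM in cDC2 cells. Psmb9, an immunoproteasome subunit, was 658 and 800 CPM against 218 and 231 CPM. The cross-presentation list had medians of -0.06 and -0.01, with 3 of 14 genes at least 2-fold higher and 2 lower. The lower ones were Cybb and Rac2. Cybb, the catalytic subunit of the NADPH oxidase, was at 8.54 and 27.5 CPM in Xcr1 cells and 271 and 268 CPM in cDC2 cells. Rac2, which activates that oxidase, was 179 and 189 CPM against 496 and 443 CPM.

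Chemokine and costimulation genes differed in both directions. In Xcr1 over cDC2 cells, 3 of 13 counted chemokine and migration receptors were at least 2-fold higher in both libraries and 5 lower, and 3 of 28 activation genes were higher and 4 lower, against 3.67% and 8.01% of all genes. Cxcr3, the receptor for CXCL9 and CXCL10, was 162 and 192 CPM in Xcr1 cells, 4.56 and 29.1 CPM in Clec9a-only cells and 7.53 and 16.8 CPM in cDC2 cells. Cd86, a costimulatory ligand for T cells, was 282 and 140 CPM in Xcr1 cells, 4.56 and 32.4 CPM in Clec9a-only cells and 16.1 and 14.02 CPM in cDC2 cells. Ccl5, a T cell attractant, had 0 and 1 UMI in Xcr1 cells and was 77.5 and 434 CPM in Clec9a-only cells. Il12b, Il12a, Il6, Il23a, Tnfsf4, Cd70 and Cd274 had no UMI in any cell of the rule, which places them below 8.91 and 4.71 CPM. The rule left out every cell with a Ccr7 UMI, and Il12b had a UMI in 6 of 16 Sham and 5 of 18 TBI migratory cells. The part of the choice of cells in this absence was not tested.

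The comparison of interest for the study is TBI against Sham. The share of cells meeting the rule was 1.66% of filtered Sham cells (interval 1.16 to 2.32%) and 1.56% of TBI cells (1.19 to 2.01%), a difference of -0.10 percentage points (-0.84 to 0.55). Xcr1 cells were 0.587% and 0.769% (difference 0.18, -0.31 to 0.60) and Clec9a-only cells 1.08% and 0.795% (difference -0.28, -0.88 to 0.22). The cDC1-like subcluster was 0.587% and 0.901% (difference 0.31, -0.19 to 0.75). Each interval, which covers counting error only, includes 0, and the libraries were not tested against each other. Within the dendritic cells of the cDC1 rule, the cDC2 rule and the Ccr7 and Fscn1 rule for migratory cells, Xcr1 cells made up 12 of 135 (8.89%) and 29 of 209 (13.9%), a difference of 4.99 points (-2.25 to 11.5). Without the hemoglobin limit, which removed more Sham than TBI barcodes, the difference over all cells of the rule was 0.04 points.

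Few genes differed by 2-fold between the libraries. In the cells of the rule 2247 genes reached 50 UMIs, of which 30 (1.34%) were at least 2-fold higher in TBI and 9 (0.401%) at least 2-fold lower. For Xcr1 cells the counts were 18 (1.94%) and 3 (0.323%) of 930 genes, for Clec9a-only cells 24 (1.87%) and 9 (0.702%) of 1282, and for cDC2 cells 49 (1.11%) and 15 (0.34%) of 4406.

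The largest ratios often came from few cells. Serpina3g, a serine protease inhibitor gene, was 14.9 CPM in Sham and 97.4 CPM in TBI (log2 ratio 2.59, interval 1.41 to 4.39), with UMIs in 3 of 34 and 8 of 59 cells. Ly6c2, a monocyte gene, was 35.7 and 201 CPM (2.44, 1.64 to 3.49), and 122 of its 128 TBI UMIs were in 3 Clec9a-only cells. Ccl5 was 50.5 and 212 CPM (2.03, 1.34 to 2.89), with 55.6% of its TBI UMIs in 1 cell. Ccl17, a T cell chemokine, was 38.6 and 110 CPM (1.47, 0.64 to 2.49), with 87.1% of its TBI UMIs in 1 cell. Stmn1, a gene of dividing cells, was 29.7 and 86.4 CPM, with 63.6% in 1 cell. In Xcr1 cells Ly6c2 had 5 UMIs in Sham and 6 in TBI, Ccl17 1 and 1, and Ccl5 0 and 1.

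Other genes were spread over more cells. Gatm, a creatine synthesis enzyme, was 32.7 and 121 CPM (log2 ratio 1.83, 0.97 to 2.95), with UMIs in 8 of 34 Sham and 32 of 59 TBI cells. In Xcr1 cells it was found in 2 of 12 and 19 of 29 cells, at 25.6 and 146 CPM. Creld2, a gene of the endoplasmic reticulum stress response, was 38.6 and 102 CPM (1.36, 0.53 to 2.39), in 6 and 27 cells, with 41.5% of the TBI UMIs in 1 cell. Ifi204, an interferon-induced DNA sensor, was 14.9 and 72.3 CPM (2.16, 0.96 to 3.97), in 4 and 12 cells.

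Cxcl9, which attracts CXCR3-bearing T cells and is induced by interferon gamma, was 83.2 CPM in Sham and 244 CPM in TBI (log2 ratio 1.53, 0.96 to 2.19). It was 145 and 455 CPM in Xcr1 cells, against 50.1 and 19.4 CPM in Clec9a-only cells and 6.45 and 2.80 CPM in cDC2 cells. Only 2 of 12 Sham and 6 of 29 TBI Xcr1 cells had a Cxcl9 UMI, and 1 TBI cell held 89 of the 155 TBI UMIs.

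Of the genes lower in TBI, Xcl1, the ligand of XCR1, had 52 UMIs in Sham and 2 in TBI. All 52 were in the Sham cell of the T cell cluster, marked as a doublet. Hbb-bs, a hemoglobin gene, was 140 and 45.6 CPM, in 25 cells of each library. The 5 red cell genes summed to 362.5 and 86.4 CPM in the cells of the rule and to 555 and 214 CPM in cDC2 cells, so they were lower in TBI in both. Cd209c was 157 and 75.4 CPM, Ltb, a lymphotoxin subunit, 113 and 36.1 CPM and Lyl1, a transcription factor gene, 101 and 37.7 CPM. Rnaset2b, Bccip, Ddit4, Mapk14 and Klrd1 completed the 10 lowest, at log2 ratios between -1.10 and -0.92.

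**Figure D3:**
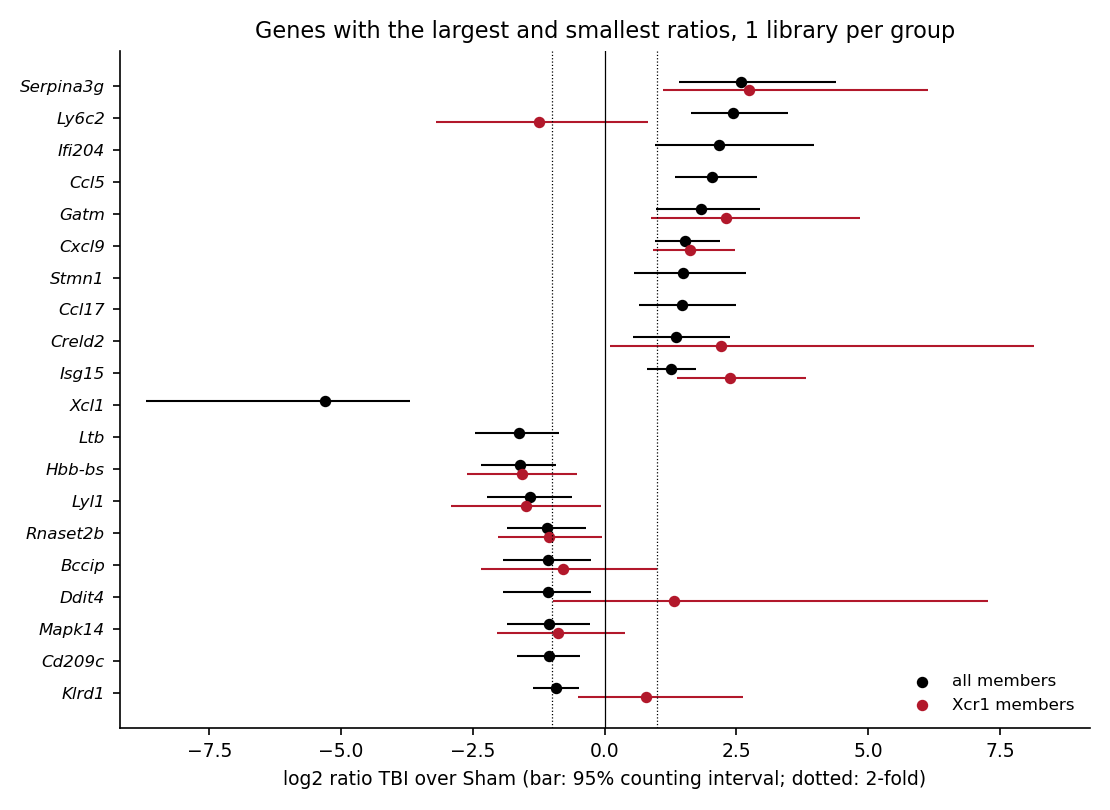
Log2 ratio of TBI over Sham (x axis) for the 10 genes with the largest and the 10 with the smallest ratio, in all cells of the rule (black) and in Xcr1 cells (red), with 95% counting intervals as bars and dotted lines at 2-fold. Xcl1 is at -5.31 through 1 Sham cell, and Ly6c2, at 2.44 in all cells, lies below 0 in Xcr1 cells.

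The interferon-induced genes were the list with the highest median among the functional lists. Of the 44 counted, 37 were above 0 in TBI over Sham and 13 at least 2-fold higher, with none 2-fold lower, at a median log2 ratio of 0.62. Over all 6980 genes counted in the same way, 52.8% were above 0, 7.23% at least 2-fold higher and 4.15% at least 2-fold lower. The list summed to 4852 CPM in Sham and 6674 CPM in TBI. Medians were 0.66 in Xcr1 cells (27 of 30 above 0, 13 at least 2-fold higher and 0 lower, against 50.4%, 11.4% and 6.21% of all genes) and 0.61 in Clec9a-only cells (32 of 41, 11 and 0, against 56.2%, 8.6% and 5.11%). In cDC2 cells the median was -0.20, with 14 of 44 genes above 0, against 54% of all genes. The libraries are the same for all groups, and the difference between groups was not tested.

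Members of the list included transcription factors, effectors and sensors. Isg15, a ubiquitin-like modifier, was 146 CPM in Sham and 349 CPM in TBI, and 59.8 and 330 CPM in Xcr1 cells. Irf7, which drives type I interferon genes, was 193 and 396 CPM, but 15 of 34 Sham and 22 of 59 TBI cells carried a UMI. In Sham 1 cell held 36 of the 65 UMIs and in TBI 1 cell held 71 of 252. Ifi205, which is also a cDC1 marker, was 205 and 377 CPM, and 419 and 623 CPM in Xcr1 cells. Iigp1, an interferon-gamma-induced GTPase, had no UMI in Sham and 20 in TBI (31.4 CPM), of which 15 were in 1 Xcr1 cell. Ifit1, Ddx58 and Gbp2 went the other way, at 44.6 and 31.4, 26.7 and 17.3, and 59.4 and 51.8 CPM.

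A few cells with high values held a large part of the list's UMIs, and the median cell was lower in TBI than in Sham. The ratio without the high cells was not computed. The list took a median of 0.427% of the UMIs of a Sham Xcr1 cell and 0.396% of a TBI Xcr1 cell, and 0.346% and 0.285% in Clec9a-only cells. The highest Xcr1 cell reached 0.693% in Sham and 3.31% in TBI, and the highest Clec9a-only cell 1.67% and 3.78%. At or above 1%, a level chosen after the counts had been seen, were 0 of 12 Sham Xcr1 cells, which allows a share of up to 25% (3 cells of the total), and 6 of 29 TBI Xcr1 cells (20.7%, interval 7.99 to 39.7%). Among Clec9a-only cells the numbers were 4 of 22 and 5 of 30. Among cDC2 cells they were 7 of 85 and 11 of 132, with medians of 0.334% and 0.271% and highest cells of 4.79% and 3.03%. The 5 highest cells of the rule held 39.1% of the list's UMIs in Sham and 41.01% in TBI. When at least 2 UMIs of Xcr1 plus Clec9a were required, which left 15 Sham and 34 TBI cells, the median ratio of the list was 0.11. Of these cells, 1 Sham and 7 TBI cells lay at or above 1%.

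**Figure D4:**
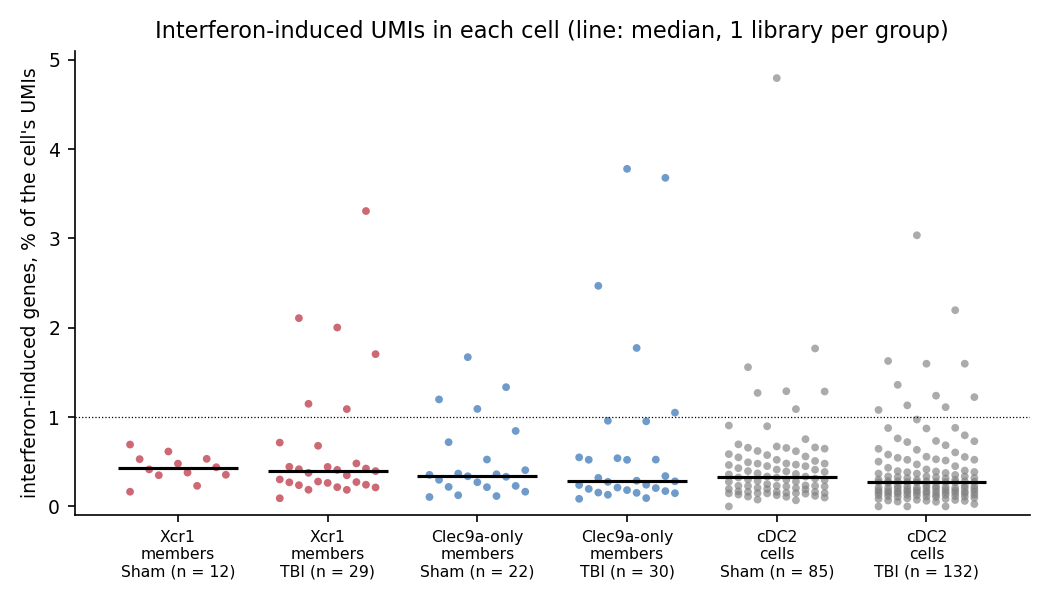
Share of each cell's UMIs from the 50 interferon-induced genes (y axis, %), by cell group and library, with each point a cell and a dotted line at 1%. The 12 Sham Xcr1 cells lie at or below 0.693% and 6 of the 29 TBI Xcr1 cells lie at or above 1%.

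Promoters of the list are shown because many interferon-induced genes are known to hold a DNA element that interferon-activated factors bind. The word GAAA, any 2 bases and GAAA again were searched together on both strands in the 250 bases before the start of each gene (RefSeq promoters, GRCm38.p6). They were found in 20 of 36 interferon-induced genes with a promoter (55.6%), against 936 of all 27025 genes (3.46%), 2 of 22 cDC1 markers, 0 of 18 cDC2 markers, 1 of 14 MHC class I genes and 2 of 25 activation genes. The lists were drawn up by known function, but with earlier results of these data known, and a match is a description of the letters only. Stretches of 30 bases are given, 5′ to 3′ on the strand of the gene, with the first match in capitals. In Isg15, Oas1a and Irgm1 a further match that overlaps it is partly in lower case. They come from chr4:156200877-156200906 minus (Isg15), chr19:34583363-34583392 plus (Ifit3), chr5:120907526-120907555 minus (Oas1a), chr1:174031870-174031899 minus (Ifi205), chr14:59341361-59341390 minus (Phf11b) and chr11:48871431-48871460 minus (Irgm1).
Isg15: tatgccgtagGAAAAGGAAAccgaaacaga
Ifit3: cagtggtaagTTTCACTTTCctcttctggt
Oas1a: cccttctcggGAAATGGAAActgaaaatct
Ifi205: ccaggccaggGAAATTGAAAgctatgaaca
Phf11b: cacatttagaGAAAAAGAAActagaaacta
Irgm1: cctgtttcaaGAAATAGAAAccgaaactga
In Ifit3 the match is on the opposite strand. The log2 ratios of TBI over Sham in the cells of the rule were 1.25 for Isg15, 1.09 for Ifit3, 0.85 for Oas1a, 0.87 for Ifi205, 0.61 for Phf11b and 0.07 for Irgm1. Over all interferon-induced genes with the match and at least 50 UMIs, the ratios ran from -0.21 for Gbp2 to 1.25 for Isg15.

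Genes for antigen presentation differed little between the libraries. Of 16 MHC class I genes 15 were above 0, against 52.8% of all genes, at a median log2 ratio of 0.17. Nlrc5, the transactivator of MHC class I genes, was 14.9 and 44.0 CPM, and Tap2, Psmb9, Tapbp and Tap1 had ratios of 0.56, 0.47, 0.38 and 0.37. The median was 0.04 in Xcr1 cells, with 10 of 16 above 0 against 50.4% of all genes, and 0.28 in Clec9a-only cells. The MHC class II list had a median of 0.03, with Cd74, the invariant chain, at 43845 and 49015 CPM and H2-Ab1 at 10756 and 9010 CPM. The cross-presentation list was at 0.00, with 7 of 14 genes above 0.

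The activation list had a median of 0.48 in all cells, 0.32 in Xcr1 cells and 0.26 in Clec9a-only cells, with 6 of 23 counted genes at least 2-fold higher and 1, Cd80, at least 2-fold lower, against 7.23% and 4.15% of all genes. In Xcr1 cells 6 of 16 were higher and 3 lower, against 11.4% and 6.21%. In all cells the higher genes were Socs3, Ccl5, Cd40, Cxcl9, Ccl17 and Marcksl1. Cd40, the receptor for T cell help, was 14.9 and 58.1 CPM, with 20 of its 37 TBI UMIs in 1 Xcr1 cell. Costimulatory Cd86 did not share this direction in Xcr1 cells, at 282 and 140 CPM, where 9 of 12 Sham and 18 of 29 TBI cells had a UMI. In Clec9a-only cells it did, with 1 UMI in 1 of 22 Sham cells and 10 UMIs in 7 of 30 TBI cells. Socs1, a brake on interferon signaling, was 179 and 76.3 CPM in Xcr1 cells, with all 21 Sham UMIs in 1 cell.

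The median of all genes was 0.02. Growth factor and cytokine receptors had a median of 0.20, with 0.05 in Xcr1 cells (9 of 14 above 0, against 50.4% of all genes). In Clec9a-only cells it was 0.38 (15 of 18 above 0, against 56.2% of all genes). Ifngr1 and Ifngr2, the chains of the interferon gamma receptor, were at 362.5 and 471 CPM and 74.3 and 122.5 CPM. Flt3 was 134 and 163 CPM. Chemokine and migration receptors had a median of 0.13 (0.22 in Xcr1 and 0.17 in Clec9a-only cells), antigen uptake and sensing receptors 0.15 (0.08 and -0.05), and dendritic cell transcription factors -0.09 (-0.20 and 0.04). The cDC1 markers had a median of 0.28 over all cells but -0.06 in Xcr1 cells and 0.08 in Clec9a-only cells. Xcr1 cells were 12 of 34 Sham and 29 of 59 TBI cells, so the sum over all cells also changes with that makeup.

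**Figure D5:**
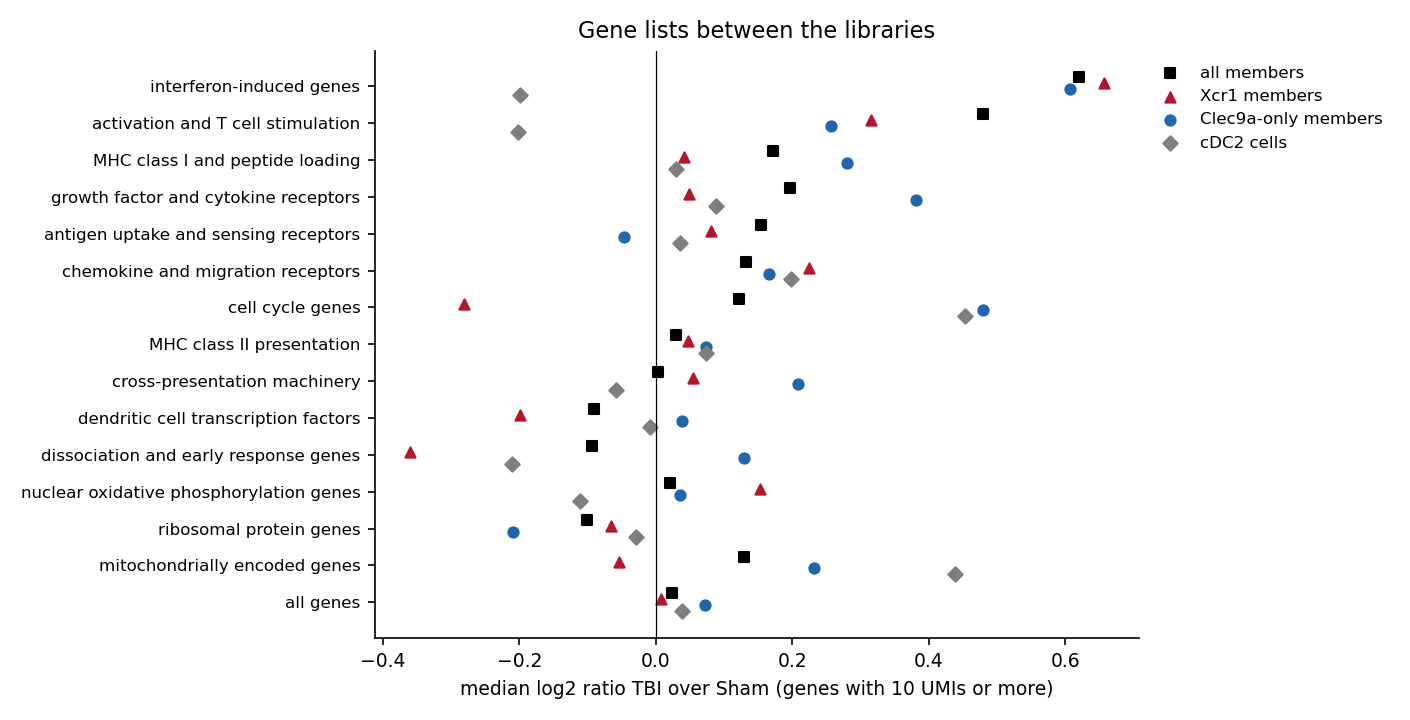
Median log2 ratio of TBI over Sham (x axis) for each gene list (y axis), over list genes with at least 10 UMIs, in all cells of the rule, Xcr1 cells, Clec9a-only cells and cDC2 cells. Interferon-induced genes lie at 0.62, 0.66 and 0.61 in the first 3 and at -0.20 in cDC2 cells.

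Lists that follow handling or RNA quality were also compared. The dissociation and early response genes, which enzymatic digestion can induce, had a median of -0.09 in all cells, -0.36 in Xcr1 cells and 0.13 in Clec9a-only cells. In Xcr1 cells Hspa8, a heat shock chaperone, was 4690 and 3040 CPM and Junb 470 and 238 CPM. Egr1 was 120 and 3.05 CPM there, with all 14 Sham UMIs in 1 cell. Cell cycle genes had a median of 0.12 in all cells, -0.28 in Xcr1 cells (2 of 6 above 0, against 50.4% of all genes) and 0.45 in cDC2 cells. In Clec9a-only cells it was 0.48 (18 of 22 above 0, 7 at least 2-fold higher and 0 lower, against 56.2%, 8.6% and 5.11% of all genes). The median over all cells was -0.42 when only the cells of the main cluster were kept, which left out the dividing TBI cell and 11 others. Nuclear oxidative phosphorylation genes were at 0.02, ribosomal protein genes at -0.10 and mitochondrially encoded genes at 0.13. The last turned to -0.05 in Xcr1 cells and to -0.48 with every cell weighted equally.

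In Clec9a-only cells Gm42418, a transcript that overlaps ribosomal RNA, was 32927 CPM in Sham and 14304 CPM in TBI, with 32.8% of its Sham UMIs in 1 cell. Lars2, a mitochondrial aminoacyl-tRNA synthetase gene, was 2212 and 1102 CPM in Xcr1 cells. The part of these genes, and of the handling genes, in the ratios above was not tested.

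Markers of other cell types were low but not absent, given as summed CPM in Sham and TBI. Macrophage markers (13 of 14 detected) were 585 and 702 CPM without the C1q genes that the rule limited, and 799 and 847 CPM with them, monocyte markers 306 and 539 CPM (Plac8 highest, Hp at 0), T and NK cell markers 193 and 214 CPM (Nkg7 highest) and B cell markers 235 and 185 CPM (Ighm highest, Pax5 at 0). In Xcr1 cells T and NK cell markers summed to 8.54 and 6.10 CPM (1 and 2 UMIs), with Cd3e, Cd3d, Trac and Nkg7 at 0, and macrophage markers were 171 and 162 CPM without C1q genes and 171 and 177 CPM with them. Plasmacytoid markers were 371 and 426 CPM, most of it Bst2, which interferon also induces, and 154 and 348 CPM in Xcr1 cells. Migratory dendritic cell markers were 140 and 401 CPM, with Ccl5 highest and Il12b at 0. Neutrophil markers were 11.9 and 14.1 CPM and endothelial markers 11.9 and 17.3 CPM, where the floor is 8.91 and 4.71 CPM. Mast cell markers were 26.7 and 39.3 CPM (Kit highest), and 42.7 and 67.1 CPM in Xcr1 cells. Fibroblast markers, 14.9 and 126 CPM, and red cell genes moved between the libraries in these cells as they did in cDC2 cells. In Xcr1 cells fibroblast markers were 17.1 and 107 CPM. The part of all these markers in the ratios was not tested.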

How the data were processed

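Dorsal meninges of 5 pooled mice per group gave 1 Sham and 1 TBI library. The authors deposited UMI counts per gene and barcode, made with Cell Ranger on mm10 (GRCm38) from 10x 3′ libraries. The submitters' processing notes name version 2.1.1 and the matrix headers 3.1.0, and the notes also name Seurat 3.9.9 and DESeq2 1.30.0, whose output was not used here. All values were whole numbers and filtered barcodes were still present. No annotation of cells by the authors was used.

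UMIs of the chosen cells were summed per library, which held 7866611 and 13940740 UMIs after filtering, and expressed as CPM. Ratios are log2 TBI over Sham with 0.5 added to each sum, and exact binomial intervals. Single genes were counted from 50 UMIs over the compared sums and gene lists from 10, and genes of the rule were left out of ratios and list medians but kept in sums of cell type markers unless stated. Shares have Clopper-Pearson intervals and their differences Newcombe intervals. Sums of 1 or 2 UMIs lie below the floor of 3 UMIs, and a share of 0 allows up to 3 cells of the total. UMIs are not corrected for free RNA.

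All filtered cells were clustered together (scanpy 1.11.5, leidenalg 0.10.2) with 2000 variable genes, 20 components, 20 neighbours and resolution 0.8, and the cluster of most chosen cells was clustered again without the rule's genes. Doublets were predicted from 2 simulated doublets per cell, with the share marked set in advance, and kept, and removed in an alternative. Gene positions were matched by gene ID to GENCODE and promoters by symbol to RefSeq. The ratios and intervals were tested on simulated data that held counting error only and no variation between cells. That test does not cover genes with most of their UMIs in 1 cell.

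The rule for the cells and the gene lists were chosen with earlier results of these data known. Named genes were those of the rule and lists, the 10 largest and 10 smallest ratios of TBI over Sham, the 20 largest and 10 smallest of the weaker library ratio over cDC2 cells, and the 5 closest in pattern to Xcr1 and to Clec9a. Further genes (Gm42418, Lars2) were picked after their values were seen. Alternatives changed the limits of the rule, gene minimum, scaling, weighting of cells and doublets. Values of a few list genes are not reported here.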

Additional observations from a re-analysis of the deposited data

Results flagged for a closer look

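Over the cells of the rule and the cDC2 cells of both libraries, 5660 genes had at least 50 UMIs, before a further limit at the floor. For 6 of these genes the cells of the rule lay at least 2-fold below cDC2 cells in the Sham library and at least 2-fold above them in the TBI library. With 1 library per group this difference was not tested, and the cDC2 cells were chosen for Cd209a and for having none of the Xcr1 or Clec9a UMIs that the rule required. Stx6 had log2 ratios of -1.88 in Sham and 1.16 in TBI, from 2 and 28 UMIs in the cells of the rule, with at most 2 UMIs in any of them. Crybg1 had -1.002 and 1.05 (7 and 42 UMIs), Lars -1.14 and 1.06 (5 and 36 UMIs) and 2310001H17Rik -2.23 and 1.31 (1 and 18 UMIs). Cd40 had -1.10 and 2.02 (5 and 37 UMIs, 20 of them in 1 cell) and Ptgds -1.34 and 1.69 (1 and 37 UMIs, 30 of them in 1 cell). In the cells of the rule the Sham sums of Stx6, Ptgds and 2310001H17Rik lie below the floor of 3 UMIs.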

How the results depend on the processing

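No paired analysis was possible because each group has 1 library. Of 244 alternative values of shares, counts and list medians, 199 stayed within a set range of the reported value, 43 moved beyond it and 2 reversed. Of 2565 values for single genes the numbers were 2464, 99 and 2. The range was the counting interval for shares and a set fold for counts and genes. For medians it was an interval over the genes of the list, which treats genes as replicates and is not a counting interval. The sign changed within that range in 25 of the 199 and 148 of the 2464. The share difference, -0.10 points, was 0.17 with at least 2 UMIs of Xcr1 plus Clec9a, 0.18 after thinning, 0.046 with an H2-Aa minimum of 10, 0.037 without the hemoglobin limit, 0.18 for Xcr1 cells and 0.31 for the subcluster, so it has no stable direction. Cell cycle genes were -0.28 in Xcr1 cells and dissociation genes 0.13 in Clec9a-only cells. The interferon list stayed above 0, between 0.11 and 0.66. The causes of the shifts were not tested.

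Among dendritic cells in place of all cells, the share of the cells of the rule differed by 3.04 points. Counts of genes (higher and lower in TBI, then higher and lower than in cDC2 cells) were 143, 53, 118 and 157 with a gene minimum of 25, 11, 1, 36 and 28 with 100, and 1505, 1269, 802 and 346 with none. Centring on the median gene gave -0.025 for oxidative phosphorylation and -0.15 for ribosomal genes. With every cell weighted equally, 89 and 45 genes were higher and lower in TBI and 131 lower than in cDC2 cells, oxidative phosphorylation was 0.11 and ribosomal genes -0.0065, and reversals occurred for mitochondrial genes (-0.48) and, over cDC2 cells, Fn1 (0.98) and Kif23 (0.96). Ribosomal genes were -0.14 with totals free of mitochondrial, hemoglobin and ribosomal genes and -0.067 without predicted doublets.

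With at least 2 UMIs of Xcr1 plus Clec9a, 17 genes were higher in TBI and 293 lower than in cDC2 cells, and the interferon (0.11), dissociation (-0.34), ribosomal (-0.060) and mitochondrial (0.40) lists moved. An H2-Aa minimum of 10 gave 0.28 for mitochondrial genes.

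Chosen after seeing the data, Xcr1 cells gave 18, 3, 126 and 380 genes, MHC class I 0.042, dissociation -0.36, oxidative phosphorylation 0.15, ribosomal -0.065 and, reversed, mitochondrial -0.054. Clec9a-only cells gave -0.21 and 0.23 for ribosomal and mitochondrial genes. The cells of the main cluster gave 17 genes higher in TBI and 127 lower than in cDC2 cells, cell cycle -0.42 and ribosomal -0.057. Depth limits the rest: 3 UMIs equal 25.6 CPM in Sham Xcr1 cells.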
